A study of Mus musculus with 19 samples.

Results

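The Schlafen family (Slfn) genes Slfn1, Slfn2, Slfn3, Slfn4, Slfn5, Slfn8 and Slfn9 were followed in CD11b+ brain cells of wildtype mice and of mice lacking PARK7/DJ-1 (KO), with and without systemic LPS. They were chosen by name, with earlier results of these data known. They were 7 of the 56980 genes counted and were matched to the Ensembl identifiers of the count table through the GENCODE mouse annotation. All 7 passed the low-count filter that left 18739 genes for testing. The study took CD11b+ cells by magnetic separation from the brains of male mice aged 3 to 4 months and sequenced their ribosome-depleted RNA. Group sizes were 4 wildtype mice with vehicle (WT PBS), 5 KO mice with vehicle (KO PBS), 5 wildtype mice with LPS (WT LPS) and 5 KO mice with LPS (KO LPS), each mouse giving 1 library. LPS, bacterial lipopolysaccharide from E. coli O55:B5, was injected into the peritoneum at 4 µg per g of body weight 6 h before the brains were taken, and vehicle mice received saline. KO mice carried a gene-trap insertion in Park7, the gene of the redox-sensitive protein DJ-1, in every cell, and the wildtype mice were their littermates on the C57BL/6NCrl background. The gene trap lowered Park7 RNA without removing it, from 22.3 ± 2.08 CPM (SD, n = 4) in WT PBS to 1.66 ± 0.96 (n = 5) in KO PBS and from 25.3 ± 3.91 to 3.45 ± 1.72 (n = 5 each) in LPS mice, where CPM are read counts relative to the TMM-scaled library total. By western blot the study found no DJ-1 protein in brain tissue or microglia of KO mice. Counts per gene do not show which exons the remaining reads cover.

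Schlafen proteins take their name from the German word for sleeping, after the growth arrest that the founding members cause in T cells. The short members Slfn1 and Slfn2 hold little beyond the shared Slfn core, Slfn3 and Slfn4 are of intermediate length, and the long members Slfn5, Slfn8 and Slfn9 add a helicase-like region at the C-terminus. Many family members are induced by type I interferon or by ligands of Toll-like receptors in myeloid cells, and several bind or cut transfer RNA. Slfn2 is known for keeping T cells and monocytes quiescent and for shielding transfer RNA from stress-induced cleavage.

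On the mouse genome build GRCm39 the genes sit side by side in 267 kb of chromosome 11, from 82842100 to 83109101. Slfn5 (82842100 to 82855666, plus strand) comes first, followed by Slfn9 (82868552 to 82882656, minus), Slfn8 (82892984 to 82911669, minus), Slfn2 (82955609 to 82961504, plus), Slfn1 (83007615 to 83013496, plus), Slfn4 (83066012 to 83081042, plus) and Slfn3 (83082123 to 83109101, plus). Because related genes can share reads, the exons were cut into all windows of 75 bases, the read length, and searched in the whole genome. Every window of Slfn1 occurred once, and 98.5% of those of Slfn2, 97.0% of Slfn4, 97.0% of Slfn5, 93.5% of Slfn9, 93.2% of Slfn3 and 92.0% of Slfn8 did so. Slfn8 shared 4.24% of its windows with Slfn9, Slfn4 shared 0.92% with Slfn3 and 0.71% with Slfn2, and no other pair of members shared any. Windows that recurred outside the members made up 6.24% in Slfn3, 5.73% in Slfn8, 5.17% in Slfn9, 2.98% in Slfn5 and 1.41% in Slfn4. Reads from repeated windows cannot be placed by their sequence alone.

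The 250 bases before the start of each member's GENCODE canonical transcript were read from GRCm39 because all members moved in the same direction with LPS. They were searched on both strands for the core of the interferon-stimulated response element (ISRE; GAAANNGAAA), the gamma-activated site (GAS; TTCNNNGAA), the NF-kappaB site and an ETS-type site (ACTTCCT), the last of which was added after the sequences had been read. Among 21770 promoters of protein-coding genes, 3.32% held the ISRE letters, 7.70% the GAS letters, 7.62% the NF-kappaB letters and 7.12% the ETS-type letters. Because the ETS-type letters were added after reading the members' sequences, their occurrence in members cannot be weighed against that share. In Slfn5 the canonical transcript starts inside the outer bounds of the gene given above, and positions are counted from the transcript's start. The ISRE letters occurred in the long members Slfn5, Slfn8 and Slfn9, which are shown with all matches in capitals, 5′ to 3′ on the strand of the gene.

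Slfn5, chr11:82842678-82842927, plus strand: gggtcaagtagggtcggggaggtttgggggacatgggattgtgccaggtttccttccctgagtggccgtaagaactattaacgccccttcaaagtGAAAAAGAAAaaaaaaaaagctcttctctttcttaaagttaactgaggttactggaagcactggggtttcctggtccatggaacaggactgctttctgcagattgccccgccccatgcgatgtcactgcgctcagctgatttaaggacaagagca

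Slfn8, chr11:82911670-82911919, minus strand: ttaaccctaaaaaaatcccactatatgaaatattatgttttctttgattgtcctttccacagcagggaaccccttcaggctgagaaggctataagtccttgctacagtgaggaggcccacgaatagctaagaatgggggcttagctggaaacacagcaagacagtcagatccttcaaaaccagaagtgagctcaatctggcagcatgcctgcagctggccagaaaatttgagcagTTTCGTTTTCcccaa

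Slfn9, chr11:82882657-82882906, minus strand: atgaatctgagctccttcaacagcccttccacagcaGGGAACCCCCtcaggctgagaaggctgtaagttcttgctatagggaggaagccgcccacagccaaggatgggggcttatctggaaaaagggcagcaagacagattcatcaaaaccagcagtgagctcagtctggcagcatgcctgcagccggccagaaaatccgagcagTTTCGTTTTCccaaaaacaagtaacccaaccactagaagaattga

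Slfn8 and Slfn9 held the same match, TTTCGTTTTC (the ISRE core on the opposite strand), which began 15 bases before the start in Slfn8 and 45 bases before it in Slfn9. Their promoters also shared an exact run of 20 bases. The match in Slfn5 began 155 bases before the start, and the other capitals in Slfn9 mark an NF-kappaB match. The ETS-type letters occurred in Slfn1, Slfn3 and Slfn4, of which the pair with the longest shared run is shown.

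Slfn1, chr11:83007365-83007614, plus strand: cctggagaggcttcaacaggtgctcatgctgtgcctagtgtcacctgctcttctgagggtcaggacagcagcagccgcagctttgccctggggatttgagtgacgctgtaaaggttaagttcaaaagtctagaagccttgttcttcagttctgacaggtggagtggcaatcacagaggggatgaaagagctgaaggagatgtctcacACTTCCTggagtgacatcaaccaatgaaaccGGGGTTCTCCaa

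Slfn4, chr11:83065762-83066011, plus strand: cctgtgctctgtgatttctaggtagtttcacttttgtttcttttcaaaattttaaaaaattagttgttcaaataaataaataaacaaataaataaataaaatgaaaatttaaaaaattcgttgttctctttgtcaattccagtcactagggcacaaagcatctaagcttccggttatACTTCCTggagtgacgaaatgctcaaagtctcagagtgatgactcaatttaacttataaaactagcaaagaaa

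Slfn1 and Slfn4 shared 15 bases from the ETS-type match onward, which began 43 bases before the start in Slfn1 and 73 bases before it in Slfn4. The second run of capitals in Slfn1 marks an NF-kappaB match. In Slfn3 the ETS-type letters occurred in both orientations, 26 and 9 bases before the start. Slfn2 held none of the 4 motifs in this window, and GAS letters were in no member. A match of letters does not show that a factor binds.

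Library totals ranged from 11936364 to 22788884 counts with a median of 17211939, so 3 counts correspond to 0.139 to 0.256 CPM. The label microglia was checked against 8 microglial markers (among them P2ry12, Tmem119 and Cx3cr1), which were detected in all 4 groups and summed to between 23613 and 37923 CPM in PBS libraries and between 11520 and 18180 CPM in LPS libraries. Markers of other cells were present too. The sum of 8 neutrophil markers lay between 20.9 and 185 CPM in PBS libraries and between 100.001 and 453 CPM in LPS libraries, and that of 6 monocyte markers between 29.5 and 69.7 CPM and between 183 and 526 CPM. All 6 monocyte markers passed the test as higher after LPS in each genotype, beside 18.4% of all genes in wildtype and 20.1% in KO mice. The neutrophil markers did so in 4 of 8 cases in wildtype and 5 of 8 in KO mice, and Ly6g, the defining surface marker of neutrophils, in neither. In each genotype 6 of 8 microglial, 2 of 5 border macrophage and 2 of 2 tested B cell markers were lower after LPS. The share of all genes that were lower was 17.4% in wildtype and 19% in KO mice. The sum of 8 T and NK cell markers lay between 0.71 and 2.67 CPM in PBS libraries and between 2.25 and 11.1 CPM in LPS libraries. Sums of 4 oligodendrocyte markers reached 9529 CPM in WT PBS replicate 2, 7265 in KO PBS replicate 1, 6567 in WT LPS replicate 2 and 11132 in KO LPS replicate 1, and KO LPS replicate 5 stood apart from its group in a principal component analysis. In bulk RNA a change in the number of cells of a type and a change in RNA per cell cannot be told apart.

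LPS against PBS asks how the family responds to systemic inflammation. All 7 members were higher after LPS in wildtype mice and all 7 in KO mice (edgeR quasi-likelihood test, log2FC of 0.5 or more at an adjusted p-value under 0.05), against 18.4% of all genes tested that were higher in wildtype and 20.1% in KO mice and 17.4% and 19% that were lower. The median log2FC over the members was 2.93 in wildtype and 3.03 in KO mice, beside -0.06 and -0.01 over all genes. Slfn4 rose most, about 140-fold in wildtype and 150-fold in KO mice, followed by Slfn1 at 29.6-fold and 27.9-fold, Slfn2 at 16.6-fold and 16.7-fold, Slfn5 at 7.60-fold and 8.16-fold, Slfn9 at 4.68-fold and 4.77-fold, Slfn3 at 3.88-fold and 2.99-fold, and Slfn8 at 3.53-fold and 3.48-fold, the last of which exceeded that of Slfn3 in KO mice. The summed level of the 7 genes went from 149 ± 11.8 to 1465 ± 384 CPM in wildtype and from 138 ± 16.9 to 1390 ± 440 CPM in KO mice.

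Of the short members, Slfn1, the founding growth-arrest member, was barely detected at baseline. Its levels were 0.89, 1.09, 1.25 and 1.06 CPM in WT PBS replicates 1 to 4 and 0.92, 1.11, 0.25, 1.52 and 1.03 CPM in KO PBS replicates 1 to 5, from 5 to 29 counts. After LPS they were 30.5, 22.4, 32.8, 40.6 and 32.6 CPM in WT LPS and 15.7, 18.2, 49.7, 32.0 and 20.3 CPM in KO LPS. The groups with and without LPS did not overlap in either genotype, and KO LPS replicate 3 was the highest of all libraries. The log2FC was 4.89 ± 0.42 (SE; adjusted p = 3.79e-08) in wildtype and 4.80 ± 0.38 (adjusted p = 8.72e-09) in KO mice.

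Slfn2, the quiescence gene and tRNA protector, was well expressed before LPS. WT PBS replicates held 22.8, 15.5, 16.3 and 19 CPM and KO PBS replicates 18.2, 16.4, 19.2, 15.6 and 15.9 CPM. After LPS its levels were 257, 192, 263, 419 and 397 CPM in WT LPS and 204, 283, 345, 263 and 327 CPM in KO LPS. The lowest LPS library of either genotype, at 192 CPM, was far above the highest PBS library at 22.8 CPM. The log2FC was 4.05 ± 0.23 (adjusted p = 5.16e-10) in wildtype and 4.06 ± 0.21 (adjusted p = 9.42e-11) in KO mice.

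Of the intermediate members, Slfn4, a gene of activated macrophages and other myeloid cells, had the largest rise of the family. It stood at 3.81, 1.88, 3.55 and 4.84 CPM in WT PBS and at 0.67, 1.85, 1.83, 6.86 and 4.59 CPM in KO PBS. After LPS it reached 322, 304, 562, 704 and 572 CPM in WT LPS and 218, 355, 674, 618 and 511 CPM in KO LPS. The groups did not overlap, and baseline levels varied more in KO PBS (coefficient of variation 79.8%) than in WT PBS (34.9%), a difference that was not tested. The log2FC was 7.13 ± 0.60 (adjusted p = 2.87e-08) in wildtype, rank 24 of 18739 genes from the top, and 7.23 ± 0.54 (adjusted p = 4.92e-09) in KO mice, rank 16.

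Slfn3, known for roles in T cells and in the differentiation of gut epithelium, was the exception in its spread. WT PBS replicates held 1.20, 2.55, 1.38 and 2.48 CPM and KO PBS replicates 2.95, 2.59, 1.32, 1.36 and 2.38 CPM. WT LPS replicates held 4.65, 8.02, 8.13, 11.6 and 4.43 CPM and KO LPS replicates 9.11, 4.52, 9.93, 5.82 and 2.31 CPM. The groups were apart in wildtype mice and overlapped in KO mice, where KO LPS replicate 5 fell below 3 of the 5 PBS libraries. The log2FC was 1.95 ± 0.43 (adjusted p = 0.00101) in wildtype and 1.58 ± 0.39 (adjusted p = 0.0023) in KO mice, and without KO LPS replicate 5 the latter was 1.79.

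Of the long members, Slfn5 is an interferon-induced nuclear protein. It stood at 35.3, 57.8, 36.5 and 47.0 CPM in WT PBS and at 65.8, 36.9, 32.6, 33.9 and 30.6 CPM in KO PBS. After LPS it reached 320, 243, 270, 461 and 386 CPM in WT LPS and 272, 216, 655, 281 and 206 CPM in KO LPS. KO PBS replicate 1 and KO LPS replicate 3 lay far above the rest of their groups, yet the lowest LPS library was still above the highest PBS library. The log2FC was 2.93 ± 0.35 (adjusted p = 1.61e-06) in wildtype and 3.03 ± 0.32 (adjusted p = 2.98e-07) in KO mice, and without KO LPS replicate 3 the latter was 2.61.

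Slfn8, a long member expressed in immune cells, had the highest baseline of the family per kb of exon and the smallest rise in wildtype mice. WT PBS libraries held 89.2, 49.7, 80.2 and 67.5 CPM and KO PBS libraries 67.3, 74.9, 71.7, 63.8 and 61.3 CPM. LPS libraries held 298, 185, 226, 275 and 283 CPM in wildtype and 175, 242, 294, 234 and 234 CPM in KO mice. The groups did not overlap. The log2FC was 1.82 ± 0.18 (adjusted p = 1.56e-07) in wildtype and 1.80 ± 0.16 (adjusted p = 4.96e-08) in KO mice.

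Slfn9 is the neighbour of Slfn8 and the member that shares the most windows with it. It stood at 11.1, 6.97, 7.62 and 6.83 CPM in WT PBS and at 9.51, 9.01, 5.69, 5.97 and 6.16 CPM in KO PBS, and at 37.9, 26.6, 29.3, 49.5 and 47.0 CPM in WT LPS and 28.8, 26, 61.0, 30.7 and 26.9 CPM in KO LPS. The groups did not overlap, and KO LPS replicate 3 was far above its group, as it was for Slfn5. The log2FC was 2.23 ± 0.28 (adjusted p = 3.83e-06) in wildtype and 2.25 ± 0.26 (adjusted p = 9.74e-07) in KO mice.

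**Figure D1:**
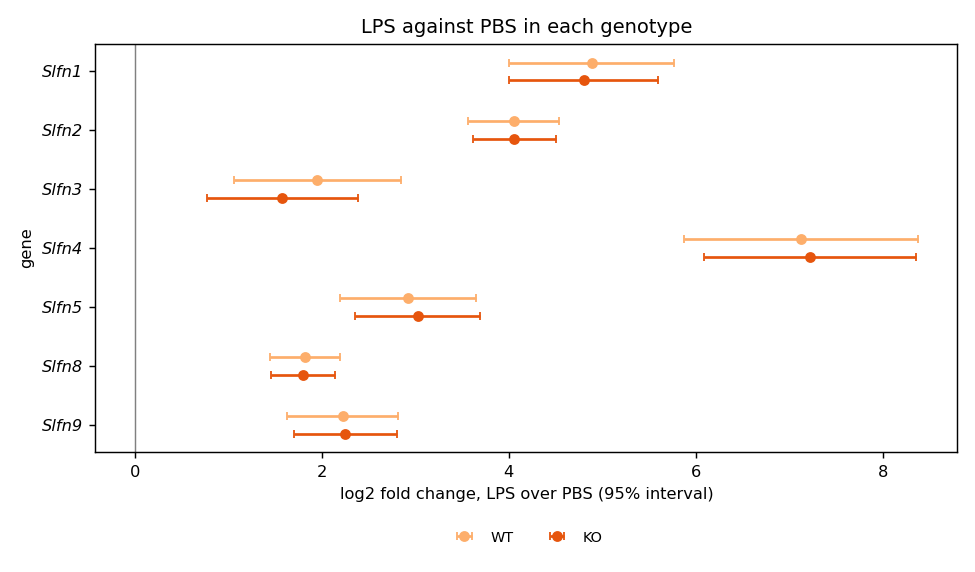
Log2 fold change of LPS over PBS (x axis) of each Schlafen gene (y axis) in wildtype and KO mice, with points for the edgeR estimate and bars for its 95% interval. Estimates run from 1.58 for Slfn3 in KO mice to 7.23 for Slfn4 in KO mice, and no interval reaches 0.

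A test free of the count model was also run. The exact two-sided permutation test of mean log2 CPM gave p = 0.00794 for all 7 members in wildtype mice and for 6 in KO mice, the smallest p that groups of 5 against 4 and of 5 against 5 allow, and p = 0.0317 for Slfn3 in KO mice. These p-values are not adjusted over the members.

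LPS also changed which member dominated. Per kb of exon, the only scale on which levels of different genes are compared here, the order in WT PBS was Slfn8 (17.4 ± 4.16 CPM per kb), Slfn2 (9.23 ± 1.65), Slfn5 (6.82 ± 1.62), Slfn9 (1.23 ± 0.30), Slfn4 (0.80 ± 0.28), Slfn1 (0.53 ± 0.07) and Slfn3 (0.29 ± 0.11). The range of Slfn8 lay above that of Slfn2, that of Slfn5 above Slfn9 and that of Slfn1 above Slfn3, whereas the ranges of Slfn2 and Slfn5, of Slfn9 and Slfn4 and of Slfn4 and Slfn1 overlapped. In WT LPS the order was Slfn2 (153 ± 49.1), Slfn4 (112 ± 39.3), Slfn8 (61.4 ± 11.3), Slfn5 (51.9 ± 13.7), Slfn1 (15.7 ± 3.21), Slfn9 (5.74 ± 1.54) and Slfn3 (1.12 ± 0.45). Here the ranges of the neighbours from Slfn2 down to Slfn5 overlapped, and those of Slfn5 and Slfn1, Slfn1 and Slfn9, and Slfn9 and Slfn3 did not. KO mice gave the same order of means with PBS and with LPS.

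**Figure D2:**
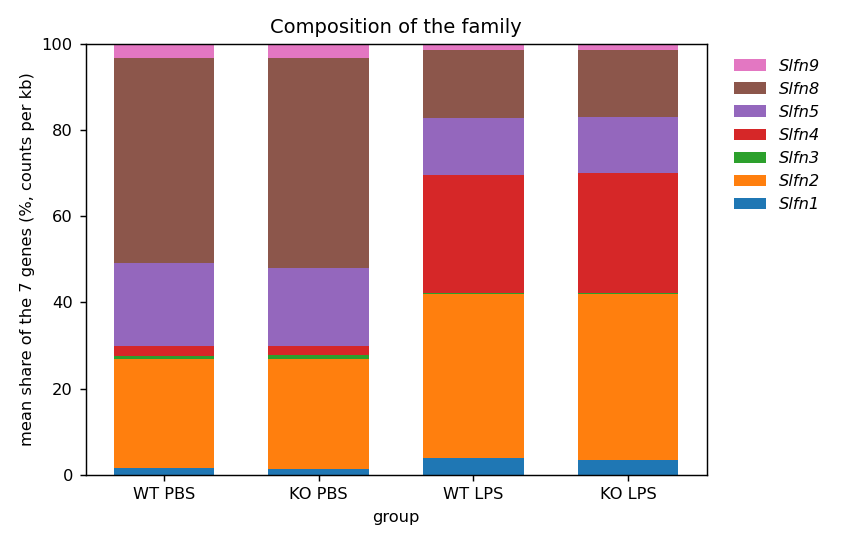
Mean share of each Schlafen gene in the family's summed counts per kb (y axis, percent) in the 4 groups (x axis), as stacked bars. Slfn8 shrinks from 47.4% to 15.8% in wildtype mice while Slfn4 grows from 2.17% to 27.5%, and KO bars show the same layout.

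Slfn8 made up 47.4% ± 6.94 of the family's counts per kb in WT PBS and 15.8% ± 3.28 in WT LPS, and 48.8% ± 3.73 and 15.5% ± 1.88 in KO mice. The share of Slfn4 went from 2.17% ± 0.68 to 27.5% ± 4.65 in wildtype and from 2.22% ± 1.86 to 27.8% ± 5.96 in KO mice, and that of Slfn2 from 25.4% ± 2.05 to 37.9% ± 2.50 and from 25.4% ± 2.05 to 38.6% ± 5.22. Slfn1 gained share as well, from 1.48% to 3.99% in wildtype and from 1.43% to 3.42% in KO mice. Slfn5, Slfn9 and Slfn3 rose in CPM but lost share, Slfn5 from 19.4% to 13% in wildtype mice. Shares are descriptions without a test.

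KO against wildtype asks whether DJ-1 loss alters the family. None of the 7 members was called after LPS or with PBS, against 0.0107% of all genes after LPS and 0.00534% with PBS (edgeR, |log2FC| of 0.5 or more at an adjusted p-value under 0.05). These shares were 2 genes after LPS and 1 gene with PBS, and Park7 itself was called lower in both comparisons. With the unadjusted p-value under 0.05 that the study's methods used for genotype, the member counts were again 0 and 0, beside 1.31% and 0.8% of all genes. After LPS the log2FC of KO over wildtype lay between -0.22 for Slfn1 and -0.04 for Slfn5, negative for all 7 members, which share their libraries and so are not independent, and the sign turned for Slfn2, Slfn3, Slfn4 or Slfn5 when some of the libraries were left out in turn. With PBS it lay between -0.16 for Slfn9 and 0.16 for Slfn3.

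The 95% intervals bound the genotype differences. The narrowest was that of Slfn8, whose log2FC after LPS was -0.10 with a 95% interval from -0.43 to 0.23, and that of Slfn2 was -0.10 with an interval from -0.49 to 0.29. For Slfn4 the value was -0.05 with an interval from -0.90 to 0.80, and for Slfn1 -0.22 with an interval from -0.88 to 0.43, so differences within these bounds are not excluded. Exact permutation tests of mean log2 CPM gave p-values between 0.341 and 0.841 after LPS and between 0.5 and 0.778 with PBS.

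**Figure D3:**
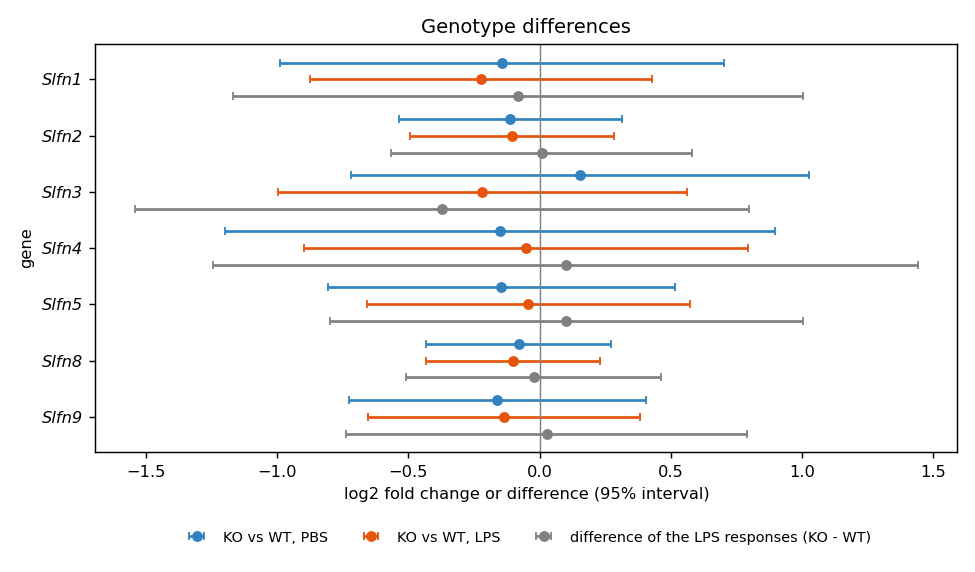
Log2 fold change of KO over wildtype with PBS and after LPS, and the difference between the LPS responses of the genotypes (x axis), for each Schlafen gene (y axis), with points for the edgeR estimate and bars for its 95% interval. All intervals include 0, and those of Slfn2 and Slfn8 are the narrowest.

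The LPS response itself did not differ detectably between genotypes. None of the 7 members passed the interaction test, beside 0% of all genes at an adjusted p-value under 0.05, 0.961% at an unadjusted one, and 0 genes with DESeq2. Differences of the log2FC (KO minus wildtype) ran from -0.37 for Slfn3, with a 95% interval from -1.54 to 0.80, to 0.10 for Slfn5, with an interval from -0.80 to 1.01. For Slfn8 the interval from -0.51 to 0.46 around -0.02 was the narrowest.

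Libraries of a group differed more in some members than in others, and these deviations ran together with other genes. Among 13364 protein-coding genes compared, the genes whose deviations from the group means over 19 libraries were most like those of Slfn4 were Adam8 (Pearson r = 0.95, Spearman rho = 0.93, r = 0.90 without the 2 libraries farthest from the median) and Il1r2 (r = 0.95, rho = 0.92, r = 0.93), a sheddase and the decoy receptor of interleukin 1 of myeloid cells. For Slfn1 they were S100a11 (r = 0.88, rho = 0.89, r = 0.76) and Hp (r = 0.83, rho = 0.78, r = 0.76), the gene of haptoglobin. For Slfn8 they were Trim30d (r = 0.95, rho = 0.94, r = 0.93) and Cd33 (r = 0.95, rho = 0.94, r = 0.92), a sialic acid receptor of myeloid cells. For Slfn2 they were Lacc1 (r = 0.90, rho = 0.82, r = 0.82) and Mmp14 (r = 0.89, rho = 0.81, r = 0.83).

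For Slfn9 the most alike were Zc3hav1 (r = 0.89, rho = 0.74, r = 0.79), an antiviral zinc-finger protein, and Usp25 (r = 0.89, rho = 0.77, r = 0.83), and for Slfn5 Lrrc8b (r = 0.89, rho = 0.80, r = 0.82) and Cercam (r = 0.89, rho = 0.77, r = 0.69). Slfn3 ran with Zap70 (r = 0.94, rho = 0.95, r = 0.91), a kinase of T cells, and Cav1 (r = 0.91, rho = 0.90, r = 0.87), the caveolin of endothelial cells. Zap70 averaged 1.16 CPM over the libraries and S100a11 1.64 CPM, near the cut of 1 CPM set for the genes compared. Within the family the closest pairs were Slfn5 and Slfn9 (r = 0.75), Slfn2 and Slfn8 (0.71) and Slfn8 and Slfn9 (0.66), while Slfn3 and Slfn8 gave -0.32. These values were the highest of many, share their libraries and depth, and are given without a test.

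Extreme values of some members and of marker sums of other cells fell in the same libraries. In LPS libraries, KO LPS replicate 1 was lowest in Slfn4 (218 CPM), in Slfn1 (15.7 CPM), in the neutrophil sum (100.001 CPM) and in the monocyte sum (183 CPM). WT LPS replicate 4, highest in Slfn4 (704 CPM), had the highest neutrophil sum (453 CPM) and monocyte sum (526 CPM), and KO LPS replicate 3, highest in Slfn1 (49.7 CPM), had 447 and 493 CPM. KO LPS replicate 5, lowest in Slfn3 among LPS libraries (2.31 CPM), had the lowest endothelial sum of all libraries (73.0 CPM over 5 markers, beside 154 to 748 CPM in the other LPS libraries). It was also the lowest LPS library in the astrocyte (156 CPM) and neuron (17.0 CPM) sums. Other LPS libraries went the other way. WT LPS replicate 5 had a lower neutrophil sum than replicate 2 (228 and 238 CPM) but more Slfn4 (572 and 304 CPM). KO LPS replicate 3 had a lower endothelial sum than replicate 2 (358 and 405 CPM) but more Slfn3 (9.93 and 4.52 CPM). Among PBS libraries, Slfn5 was highest of its group in KO PBS replicate 1 (65.8 CPM) and in WT PBS replicate 2 (57.8 CPM), and both were also highest of their groups in the oligodendrocyte sum (7265 and 9529 CPM), the astrocyte sum of 4 markers (2038 and 2580 CPM) and the endothelial sum (793 and 915 CPM). In the LPS groups the libraries highest in the oligodendrocyte sum were not highest in Slfn5, with 243 CPM in WT LPS replicate 2, the lowest of its group, and 272 CPM in KO LPS replicate 1, the middle value of its group. The part of other cells in the Schlafen values was not tested. Between PBS and LPS, the median neutrophil sum went from 73.1 to 238 CPM in wildtype mice and the median monocyte sum from 43.0 to 404 CPM, and from 67.0 to 299 CPM and 39.7 to 243 CPM in KO mice.

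**Figure D4:**
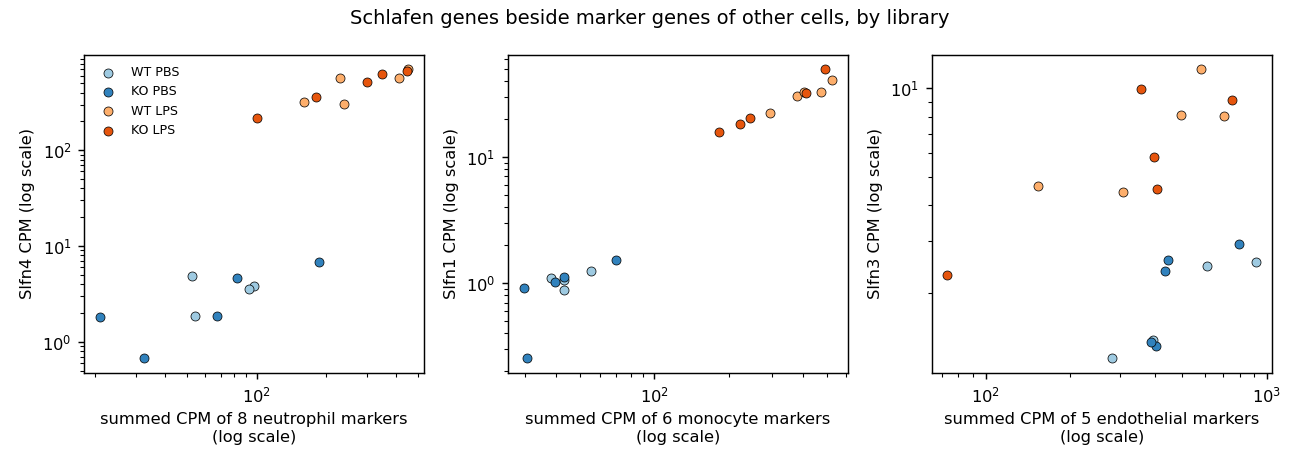
CPM of Slfn4, Slfn1 and Slfn3 (y axes, log scale) against the summed CPM of neutrophil, monocyte and endothelial markers (x axes, log scale), with 1 point for each of the 19 libraries coloured by group. Among LPS libraries, the library lowest in Slfn4 (218 CPM) and Slfn1 (15.7 CPM) lies farthest left in the first 2 panels, and the LPS library lowest in Slfn3 (2.31 CPM) lies farthest left in the last.

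The type I interferon pathway, which induces several Schlafen genes, was followed with 15 genes. Of the 13 tested, 8 were higher after LPS in wildtype mice and 8 in KO mice, beside 18.4% and 20.1% of all genes, and none was lower, beside 17.4% and 19%. The median log2FC was 1.40 and 1.26. Irf7, the amplifier of interferon production, had a log2FC of 4.74 in wildtype and 4.61 in KO mice, Usp18, a feedback inhibitor of the receptor, 3.92 and 3.62, and Stat2, a transducer of the signal, 2.40 and 2.25. Irf9, Irf1, Jak1 and Socs1 were among the others that passed, whereas the receptor genes Ifnar1 (0.01 and 0.22) and Ifnar2 (0.13 and 0.23), Tyk2, Irf3 and Irf8 did not. The ligand gene Ifnb1 was listed at 0 in all PBS libraries and reached 1.2 CPM at most after LPS, and Ifna4 was at 0 in every library, so neither was tested. No gene of this list was called between genotypes.

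Genes that cut, join or shield transfer RNA, the molecules on which Slfn2 and several other members act, were followed as a list of 13, all tested. After LPS 6 were higher and 2 lower in each genotype, beside 18.4% of all genes higher and 17.4% lower in wildtype mice and 20.1% and 19% in KO mice, so the share that was lower was near that of all genes. The median log2FC was 0.47 in wildtype and 0.43 in KO mice. Among the higher genes were Nsun2, a tRNA methyltransferase (log2FC 1.51 in wildtype and 1.59 in KO mice), Elac2, a tRNA 3′ processing nuclease (1.46 and 1.47), Ddx1 (1.01 and 1.01), Tsen54 (0.99 and 1.22) and Rtcb, the tRNA ligase (0.79 and 0.79). Among the lower genes was Ang, the gene of the tRNA-cutting ribonuclease angiogenin (-1.89 and -1.59). No gene of this list was called between genotypes.

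The genes around the family did not all move with it. Of 25 other protein-coding genes within 500 kb of the cluster, 21 were tested, of which LPS raised 9 and lowered 4 in wildtype mice and raised 10 and lowered 3 in KO mice, beside 18.4% and 17.4% of all genes in wildtype and 20.1% and 19% in KO mice, so that the lowered share was near that of all genes, with a median log2FC of 0.59 and 0.77. On the far side of the cluster, the chemokine gene Ccl5 had a log2FC of 7.90 and 7.86, Ccl9 2.68 and 3.11, Ccl3 2.30 and 2.46, and Ccl6 -0.84 and -0.61. Next to Slfn5, Unc45b, a chaperone of myosin, had -0.01 and 0.04. Few reads were counted for other loci of the family. Slfn14, beyond Slfn3 on chromosome 11, had at most 3 counts in any library, Slfn10 was listed at 0 in all 19, the related Slfnl1 on chromosome 4 had at most 13 counts, and Slfn5os, the antisense transcript of Slfn5, at most 3 counts. Slfn5os overlaps Slfn5 and Slfn10 overlaps Slfn2 on the opposite strand, and because the strand setting of the counting is not given, how reads of the overlaps were assigned is unknown. The non-coding Slfnlnc, which follows Slfn3 and was added after its values were seen, went from 2.90 ± 0.70 CPM in WT PBS to 5.96 ± 1.24 in WT LPS and from 2.79 ± 0.66 to 5.83 ± 1.44 in KO mice.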

How the data were processed

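CD11b+ brain cells of 19 mice were profiled by stranded total RNA-sequencing with paired reads of 75 bases. The authors trimmed reads with Cutadapt, aligned them with STAR 2.7.9a to GRCm39 and deposited raw counts per Ensembl gene without normalization. The strand setting of the counting is not given in the sources used here. Library totals ranged from 11936364 to 22788884 counts. Limits from 3 counts cover counting error only.

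Testing used edgeR 4.0.16 under R 4.3.3 (TMM, filterByExpr with a minimum count of 10 and a minimum total of 15, quasi-likelihood F test, all 19 libraries in 1 fit of 4 groups). A call was an adjusted p-value (Benjamini-Hochberg, over 18739 genes) under 0.05 with |log2FC| of at least 0.5, and for the interaction the adjusted p-value alone. The SE is the log2FC divided by the square root of F, and intervals use its t distribution. Log2 CPM used a prior count of 2. Alternatives were DESeq2 1.42.0, its size factors, other filters, only the groups compared, a replicate block, raw library totals and libraries left out. The main fit was tested on simulated data. In a chi-square test no library pair of a group agreed within counting noise.

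Names, exon lengths and starts came from GENCODE M39, which named 56236 of 56980 genes. Promoters are the 250 bases before the canonical start in GRCm39. Named genes were the 7 members, Park7, the listed pathway genes, protein-coding genes within 500 kb and, for each member, the 2 genes (mean CPM of at least 1) with the most similar deviations. The members and lists were chosen with earlier results of these data known. Values of some listed genes are not reported here.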

Additional observations from a re-analysis of the deposited data

Results flagged for a closer look

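Across 28 sets of a Schlafen gene and a group, 3 held a library whose gap to its nearest neighbour took more of the group's range than Dixon's 95% limit allows, where chance gives about 1 in 20. Slfn5 was at 65.8 CPM in KO PBS replicate 1, beside 30.6 to 36.9 CPM in the other 4 libraries, and this library was also highest of its group in oligodendrocyte (7265 CPM), astrocyte (2038 CPM) and endothelial (793 CPM) marker sums, whose part was not tested. Slfn5 was at 655 CPM in KO LPS replicate 3, beside 206 to 281 CPM in the other 4. Slfn9 was at 61.0 CPM in KO LPS replicate 3 as well, beside 26 to 30.7 CPM. With these libraries and KO LPS replicate 5 left out together, an alternative chosen after the data were seen, all 7 members were still called higher after LPS in KO mice and 0 between genotypes.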

How the results depend on the processing

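In each contrast refitted under an alternative, each library left out in turn included, all members tested were called higher after LPS and 0 were called between genotypes or in the interaction. Fits of only the groups compared gave no interaction, and raw library totals were used for levels alone. The number tested and called was 6 when at least 10 counts were asked of every library, a filter that Slfn1 failed, and 7 otherwise. Library totals in place of TMM moved every level per kb by less than 1 SD. The replicate numbers were not taken as pairs, because not every pair's correlation of deviations was above 0.1. For LPS against PBS the means were 0.33 in wildtype and 0.25 in KO mice, with ranges of -0.04 to 0.58 and 0.03 to 0.54. For KO against wildtype the ranges were -0.57 to 0.30 after LPS and -0.29 to 0.30 with PBS. The oligodendrocyte-rich libraries shared number 2 in wildtype and number 1 in KO mice, and a partial link of same-numbered libraries was not tested further. The replicate block left 7 members called after LPS in each genotype and 0 between genotypes. Over all genes, KO against wildtype after LPS gave 2 calls, 4 with DESeq2, 1 with the block or with only the groups compared, 0 with the stricter filter or without the oligodendrocyte-rich libraries, and 0 to 2 with libraries left out. With PBS it gave 1 call, and 0 with only the groups compared or the stricter filter. The sign of uncalled differences near 0 was not stable. The interaction of Slfn8 was 0.00095 without the low-count filter, 0.015 with DESeq2 size factors and 0.015 with DESeq2, and that of Slfn9 was -0.031 with the block. Without the library of each group highest in oligodendrocyte markers, chosen after the data were seen, Slfn4 after LPS was 0.0063 and the interaction of Slfn8 0.14. Without KO LPS replicates 3 and 5 and KO PBS replicate 1, Slfn4 with PBS was 0.066, and the interactions of Slfn9, Slfn2 and Slfn4 were -0.11, -0.13 and -0.38. With each library left out in turn, the log2FC of KO over wildtype after LPS ranged for Slfn2 -0.23 to 0.037, Slfn3 -0.44 to 0.00643, Slfn4 -0.21 to 0.14 and Slfn5 -0.46 to 0.10. With PBS the ranges were Slfn1 -0.36 to 0.11, Slfn2 -0.18 to 0.0101, Slfn3 -0.015 to 0.33, Slfn4 -0.65 to 0.10, Slfn5 -0.40 to 0.016, Slfn8 -0.21 to 0.045 and Slfn9 -0.28 to 0.026. For the interaction they were Slfn1 -0.42 to 0.14, Slfn2 -0.12 to 0.15, Slfn4 -0.15 to 0.60, Slfn5 -0.32 to 0.36, Slfn8 -0.15 to 0.12 and Slfn9 -0.27 to 0.14. The cause was not tested. Depth limits Slfn1 most, with 5 to 29 counts in PBS libraries.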
